A study of Homo sapiens with 204 samples.

Results

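The genes described here encode the structural subunits of the 5 oxidative phosphorylation complexes. They were chosen by symbol from the 18263 genes present in both an RNA-seq and a Ribo-seq count table: 96 genes matched, of which 83 lie in the nuclear genome and 13 in mitochondrial DNA. The nuclear members comprise 37 genes named for complex I, 4 for complex II, 9 for complex III, 15 for complex IV and 18 for complex V. NDUFA4 is kept with complex I by its name, although it is now known as a complex IV subunit. No expression value entered the matching, although the list was set with earlier results of these data known. A filter on low counts left 78 nuclear members in RNA-seq and 77 in Ribo-seq, and all 13 mitochondrially encoded members in both. COX4I2, COX6A2, COX7A1, COX7B2 and ATP5MGL passed in neither assay, and COX6B2 passed in RNA-seq alone, where its highest level was 1.56 CPM, that is, counts scaled to a common library total.

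The cells were A549, an established human lung adenocarcinoma line with a wild-type p53 gene, transfected for 24 h with 40 nM siRNA that targets 1 ribosomal protein or with control siRNA that targets none. Each lysate was divided into an RNA-seq and a Ribo-seq sample, and Ribo-seq sequences the mRNA fragments that ribosomes protect from nuclease. Per assay there were 91 knockdown libraries for 75 targets and 11 control libraries: 48 libraries knocked down 44 large-subunit proteins and 43 knocked down 31 small-subunit proteins. Of the targets, 59 have a single library and 16 have 2, and the comparisons with controls draw on the same 11 controls, or a subset of them, so they share controls. The labels do not say that the libraries come from separate cultures, so p-values measure the spread between libraries, which may be technical. In tests over all knockdowns or by subunit, libraries of different targets served as replicates, so that spread also includes differences between targets. These tests had no term for the target, and the 2 libraries of 1 target counted separately. How many siRNAs each target had is not given in the sources used here, so loss of a protein and any other effect of its siRNA cannot be told apart.

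Total counts per library, in megacounts (M), lay between 18.8 M and 63.6 M in RNA-seq and between 7.77 M and 57.2 M in Ribo-seq, and 3 counts in the shallowest libraries correspond to 0.16 and 0.386 CPM. The targeted mRNA was below every control in all 90 libraries whose target has a gene of that symbol in the tables, at a median log2 ratio of −4.56. KRT7, an epithelial keratin, had 1320 to 3440 CPM in knockdown and 1550 to 3520 CPM in control RNA-seq libraries, whereas PTPRC, a blood cell marker, stayed at or below 0.155 CPM in knockdown libraries and at 0 in all 11 controls. The columns of both tables form 3 consecutive runs, with 30, 45 and 16 knockdown and 4, 5 and 2 control libraries, and depth differs between them, with median RNA-seq totals of 41.4 M in run 1, 21.4 M in run 2 and 32 M in run 3. The titles fall into a numbered and an unnumbered set, which cut across these runs: the numbered controls lie in runs 1 and 3, and all but 1 of the run 3 knockdowns have unnumbered titles. One control of run 1, numbered 20_2, stood apart from the other numbered controls for several members. Results are therefore given with the title set as a term in the model, and beside them with the column run as the term.

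Oxidative phosphorylation passes electrons from NADH through complex I and from succinate through complex II to ubiquinone, on through complex III and cytochrome c to complex IV, where oxygen is reduced; the proton gradient built on the way drives ATP synthesis by complex V. Complexes I, III, IV and V are assembled from subunits of both genomes, and complex II from nuclear subunits alone. The nuclear subunits are translated on cytosolic ribosomes, which contain the proteins knocked down here, while the mitochondrially encoded subunits are translated on mitochondrial ribosomes, which contain other proteins. Cycloheximide, added before lysis, stops cytosolic but not mitochondrial ribosomes, and only fragments of 28 to 30 nucleotides, the length cytosolic ribosomes protect, were kept.

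Nuclear subunit genes are known targets of the transcription factors NRF1 and GABP, the second of which binds ETS motifs. RefSeq promoters (GRCh38.p14, 300 bases, of which the last 50 lie after the gene's start) were found for 66 nuclear members. The core motif CGCANGCGC of NRF1 occurred on either strand in 22 of these 66 promoters (33.3%), against 8.05% of 27305 promoters of all genes. The ETS motif CCGGAAG occurred in 20 of the 66 (30.3%), against 10.7% of all promoters, also on either strand, and 37 of the 66 (56.1%) held at least 1 of the pair, against 17.1%. The GC box GGGCGG, which matches neither of them, occurred on either strand in 60.6% of members' promoters and 44.6% of all promoters. The promoters of 4 members are shown from 120 bases upstream to the start because they contrast members lower and higher in knockdown cells, called at an adjusted p under 0.05 as given below; capitals mark NRF1 and ETS matches on either strand, and the last has neither.
UQCR11, called lower, chr19:1605463-1605582, minus strand: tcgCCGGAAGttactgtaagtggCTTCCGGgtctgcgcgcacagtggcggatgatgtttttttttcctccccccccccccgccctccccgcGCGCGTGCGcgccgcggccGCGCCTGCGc
ATP5F1C, called higher, chr10:7788057-7788176, plus strand: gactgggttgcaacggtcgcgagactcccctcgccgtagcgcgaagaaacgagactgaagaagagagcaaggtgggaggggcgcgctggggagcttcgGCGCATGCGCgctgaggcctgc
NDUFA1, called higher, chrX:119871712-119871831, plus strand: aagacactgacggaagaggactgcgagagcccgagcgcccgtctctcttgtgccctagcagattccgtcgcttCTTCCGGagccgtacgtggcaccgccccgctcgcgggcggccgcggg
ATP5PB, called higher, chr1:111449344-111449463, plus strand: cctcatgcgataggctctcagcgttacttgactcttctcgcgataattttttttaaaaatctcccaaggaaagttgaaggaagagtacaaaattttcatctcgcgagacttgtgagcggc
In RNA-seq, 6 were called higher and 1 lower of 37 members with an NRF1 or ETS match, and 3 higher and 0 lower of 27 tested members with neither. Of all genes, 13.4% were called higher and 17.2% lower, and whether members with and without a match differ was not tested. A match is a run of letters and not a measured binding site.

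In knockdown cells a minority of nuclear subunit mRNAs differed from controls, most of them upward and by less than 1.5-fold. Of 78 nuclear members tested in RNA-seq, 13 were higher and 2 lower in knockdown cells at an adjusted p under 0.05 (edgeR quasi-likelihood test, Benjamini-Hochberg over 15526 genes, title set as a term). Of all genes, 13.4% were called higher and 17.2% lower, so the share of members called higher was close to the background and the share called lower was below it. The median log2 fold change was 0.04 over the nuclear members and −0.03 over all genes. By complex, 7 of 37 members were called higher for complex I, 1 of 4 for complex II, 2 of 9 for complex III, 0 of 11 for complex IV and 3 of 17 for complex V; both members called lower belong to complex III. With the column run as the term, all of these 13 and 2 were called again among 17 higher and 5 lower, against 16.6% and 19% of all genes. Scaled by library totals alone, the members called were 15 higher and 0 lower with the title set, and 20 higher and 3 lower with the run. The shares of all genes called under that scaling are not given here, so these counts show only a dependence on scaling.

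**Figure D1:**
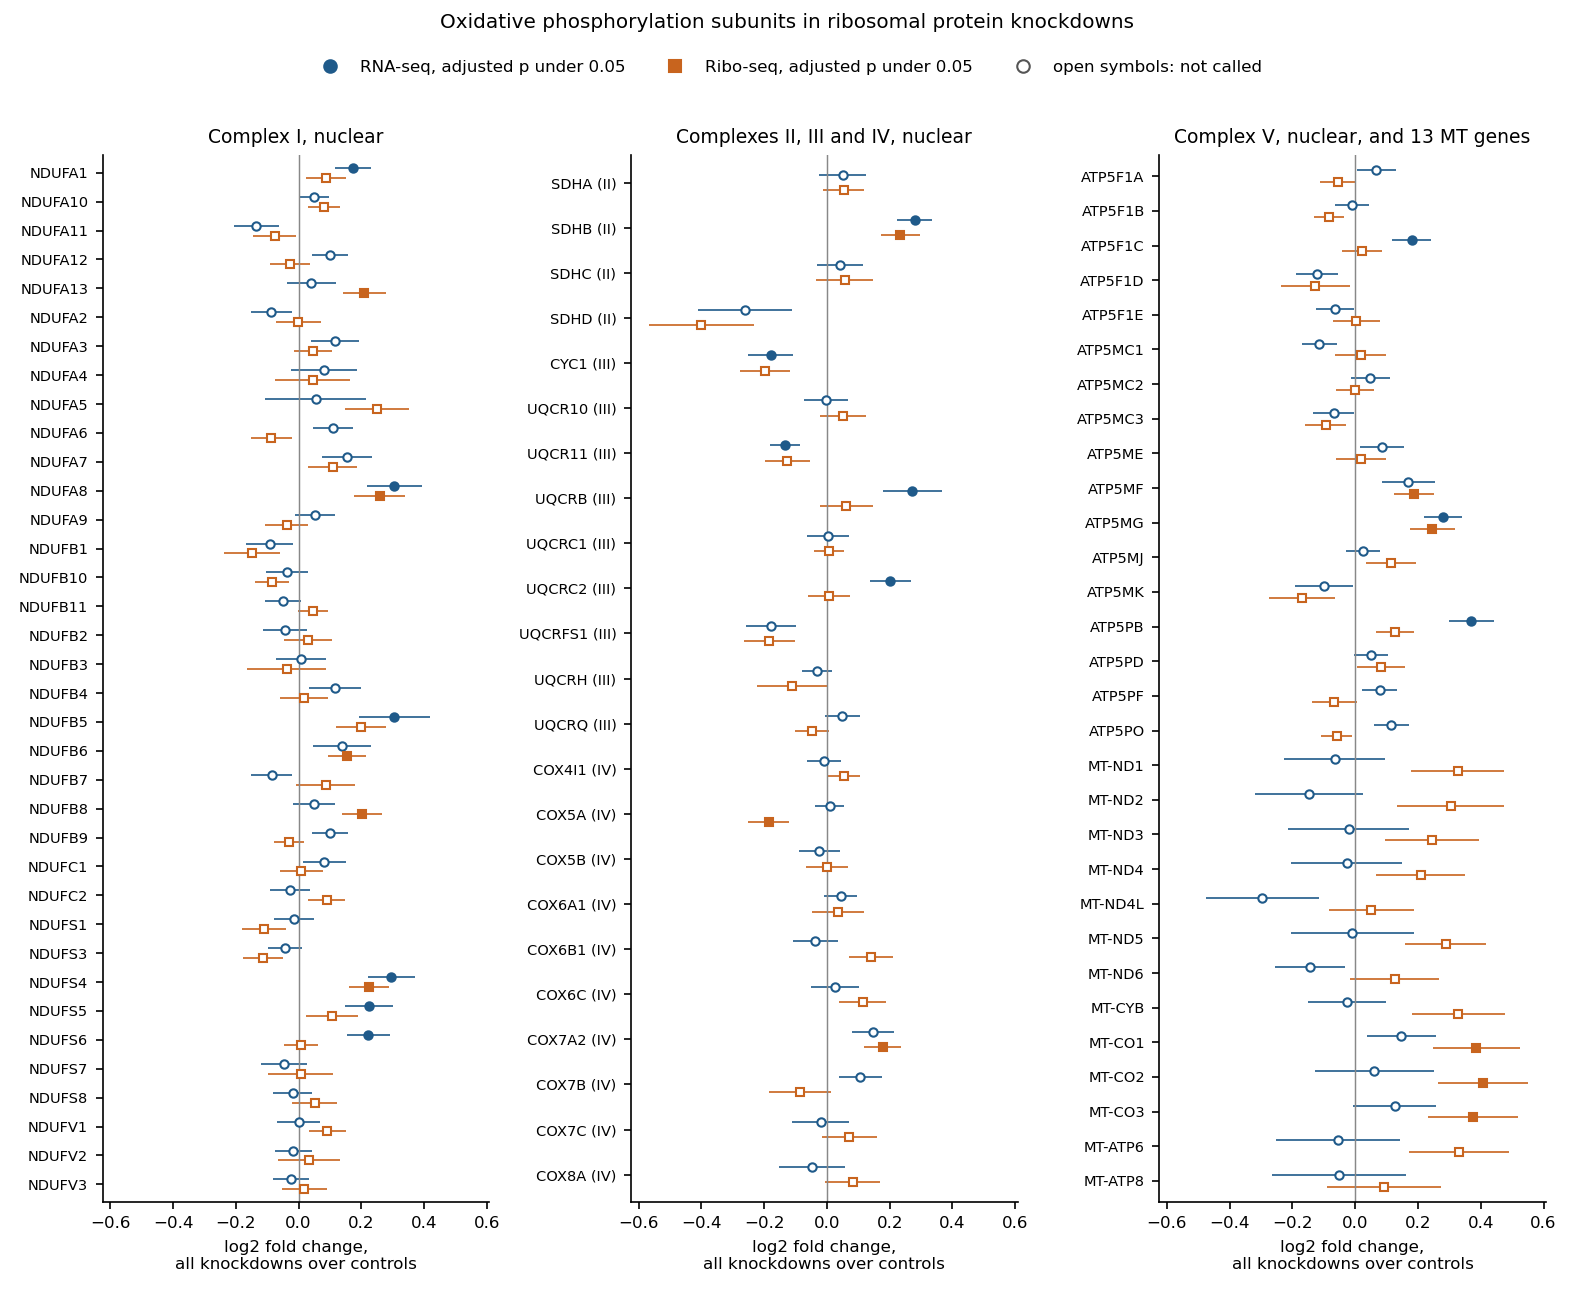
Log2 fold change, knockdown over control, of nuclear members tested in both assays and of the 13 mitochondrially encoded members, in RNA-seq (circles) and Ribo-seq (squares), with bars of 1 standard error (91 knockdown and 11 control libraries per assay); filled marks have an adjusted p under 0.05. ATP5PB is at 0.37 and CYC1 at −0.18 in RNA-seq, and the mitochondrially encoded members have wider bars than the nuclear ones.

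Complex I members called higher in RNA-seq included several of modest size. NDUFA8, an accessory subunit in the intermembrane space, had a median of 42.4 CPM in knockdown and 33.9 CPM in control libraries (log2 fold change 0.30 ± 0.088, adjusted p = 0.00479, edgeR). NDUFS4, an accessory subunit mutated in Leigh syndrome, ran from 25 through 43.1 to 60.1 CPM in knockdown libraries and from 20.6 through 33.0 to 43.7 CPM in controls, the lowest control being 20_2. Its log2 fold change was 0.30 ± 0.075 (adjusted p = 0.00142, edgeR). NDUFB5, an accessory membrane-arm subunit, had a median of 36.7 CPM in knockdown and 28.5 CPM in control libraries (0.31 ± 0.11, adjusted p = 0.0322). NDUFS5, NDUFS6 and NDUFA1 were higher by 0.22, 0.22 and 0.17 on the log2 scale. All these groups overlapped, and each of NDUFA8, NDUFS4 and NDUFB5 was above its run's control mean in 83 to 86 of the 91 RNA-seq libraries. The calls rest on these same libraries, which belong to different targets, so those counts are no separate support for them. How many of all genes reach such counts is not given here.

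In complex II, SDHB, the iron-sulfur subunit of succinate dehydrogenase, rose. It ran from 55.8 through 83.7 to 103 CPM in knockdown libraries and from 48.4 through 71.2 to 80.5 CPM in controls (0.28 ± 0.057, adjusted p = 7.02e-05, edgeR). SDHA, the flavoprotein subunit and the most abundant complex II mRNA, had medians of 107 and 111 CPM in knockdown and control libraries. SDHD, a membrane anchor, was not called in RNA-seq at a log2 fold change of −0.26, and it varied widely, from 7.0 through 35.3 to 56.3 CPM in knockdown libraries and from 17.2 through 36.6 to 53.1 CPM in controls. SDHC, the other anchor, was not called either.

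Complex III members were called in both directions. UQCRC2, a core subunit, and UQCRB, a small subunit at the quinone site, were higher by 0.20 ± 0.065 and 0.27 ± 0.094 (SE; adjusted p = 0.0117 and 0.0196, edgeR). CYC1, the cytochrome c1 subunit, ran from 86.1 through 151 to 233 CPM in knockdown libraries and from 135 through 156 to 358 CPM in controls, and fell by 0.18 ± 0.070 on the log2 scale (adjusted p = 0.0418). UQCR11, a small subunit, had medians of 42.3 and 44.0 CPM in knockdown and control libraries and fell by 0.13 ± 0.048 (adjusted p = 0.0258). The highest control value of both genes is that of control 20_2, and neither was called without that library: 17 nuclear members were then called higher and 0 lower. The share of all genes called in that fit is not given here. UQCRFS1, the Rieske protein and the most abundant complex III mRNA by CPM in controls, had medians of 226 and 245 CPM in knockdown and control libraries and was called lower with the run term alone.

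In complex V, ATP5PB, the peripheral-stalk subunit b, rose most. It ran from 54.2 through 110 to 139 CPM in knockdown libraries and from 59.6 through 81.7 to 104 CPM in controls (0.37 ± 0.072, adjusted p = 3.24e-05, edgeR). It was above its run's control mean in 87 of 91 libraries, a count that is likewise no separate support for the call. ATP5MG, a membrane subunit, had medians of 51.4 and 40.9 CPM in knockdown and control libraries (0.28 ± 0.061, adjusted p = 0.000176). ATP5F1C, the central-stalk gamma subunit, was higher by 0.18 ± 0.062 (adjusted p = 0.0205). ATP5F1B, the catalytic beta subunit and the most abundant nuclear member, was level, at 391 through 547 to 666 CPM in knockdown libraries and 443 through 540 to 807 CPM in controls. For complex IV, COX6B1, its most abundant mRNA, had medians of 187 and 186 CPM in knockdown and control libraries, and no member was called with the title-set term.

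**Figure D2:**
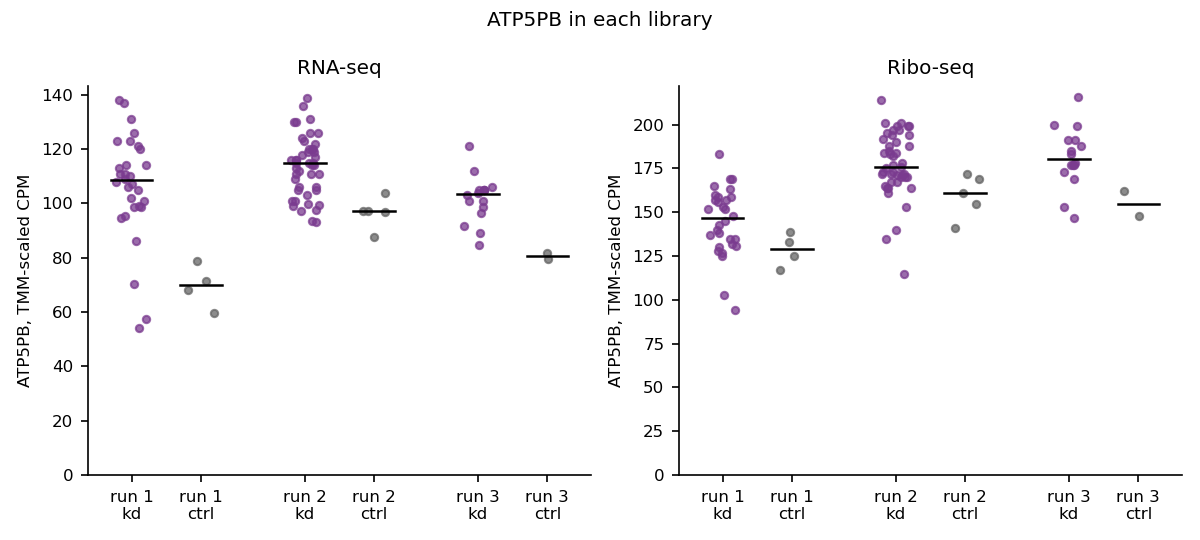
ATP5PB in TMM-scaled CPM in each RNA-seq (left) and Ribo-seq (right) library, by column run, with knockdown libraries (kd) in purple, controls (ctrl) in grey and the median of each group as a line. In RNA-seq all 16 knockdown libraries of run 3 (84.7 to 121 CPM) lie above both controls (81.7 and 79.6 CPM), while in runs 1 and 2, and in Ribo-seq in each run, the groups overlap.

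Within each run the medians of ATP5PB mRNA were 108, 115 and 104 CPM in knockdown libraries of runs 1, 2 and 3, and 69.8, 97.1 and 80.7 CPM in their controls. Fitted within single runs, ATP5PB was called higher in run 1 (0.62 ± 0.16, adjusted p = 0.00669, edgeR) and run 2 (0.25 ± 0.074, adjusted p = 0.0231) and not in run 3 (0.34 ± 0.11, adjusted p = 0.172). Whether the runs differ in this change was not tested.

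Footprints on the nuclear members gave a similar count. In Ribo-seq 10 of 77 were higher and 1 lower in knockdown cells, against 13.2% and 13.5% of 12793 genes, with a median log2 fold change of 0.02. Called higher in both assays were 5 members, which is 5 of the 13 RNA-seq calls and 5 of the 10 Ribo-seq calls, NDUFA8, NDUFS4, SDHB and ATP5MG among them. The Ribo-seq values of these 4 were 0.26 ± 0.081 for NDUFA8, 0.22 ± 0.064 for NDUFS4, 0.23 ± 0.062 for SDHB and 0.25 ± 0.071 for ATP5MG (SE). Called higher in Ribo-seq but not in RNA-seq were NDUFA13, NDUFB8 and NDUFB6 of complex I, ATP5MF of complex V and COX7A2 of complex IV, at 0.21, 0.20, 0.15, 0.19 and 0.18. COX5A, a complex IV subunit, fell by 0.19 ± 0.066 (adjusted p = 0.0257, edgeR). The difference between the assays is tested by translation efficiency below, and these 2 lists of calls do not show it.

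With the column run as the term, 14 nuclear members were called higher and 1 lower in Ribo-seq, against 14.1% and 13% of all genes, and 11 of the 14 were among the 17 called higher in RNA-seq with that term. The member called lower was CYC1 in both assays, by 0.22 ± 0.076 in Ribo-seq (adjusted p = 0.0245, edgeR) and 0.23 ± 0.066 in RNA-seq (adjusted p = 0.00487). The CYC1 footprints differed most in run 1, where knockdown libraries ran from 249 to 467 CPM and the controls were 527, 529, 558 and 494 CPM, with no overlap (−0.51 ± 0.10, adjusted p = 0.00066). Without control 20_2 no member was called lower in either assay with the run term, and 19 were called higher in RNA-seq and 14 in Ribo-seq. The shares of all genes called in these fits are not given here.

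Translation efficiency, the change in footprints beyond the change in mRNA, moved little for the nuclear members. In an edgeR model of both assays 0 of 77 were called in either direction, with 8 at an unadjusted p under 0.05, against 0.329% of 12480 genes called higher and 0.016% lower. Pairing the assays by lysate with limma called 0 members higher and 2 lower, against 1.79% and 0.938% of all genes. The 2 were ATP5PB at −0.24 ± 0.059 (adjusted p = 0.00736) and UQCRC2 at −0.19 ± 0.056 (adjusted p = 0.0404); in the unpaired model they had −0.26 ± 0.088 (adjusted p = 0.373) and −0.21 ± 0.091 (adjusted p = 0.728). Both had risen in RNA-seq, and ATP5PB footprints had medians of 170 and 148 CPM in knockdown and control libraries. The paired fit with the run term called ATP5PB again (−0.21 ± 0.053, adjusted p = 0.0087) and ATP5PO, another peripheral-stalk subunit, in place of UQCRC2 (−0.15 ± 0.047, adjusted p = 0.0474).

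Beside these shifts shared by many knockdowns, single nuclear members were far below controls in single knockdowns. The pairs described next were picked after their values were seen, as those past 0.9 on the log2 scale in every library of the target in both assays, and carry no test. Of 5775 pairs of a nuclear member and a target, 20 were lower (0.346%) and 5 higher (0.0866%), against 2.41% and 1.3% of 936000 pairs over all genes. NDUFA4 had 10.9 CPM in RNA-seq of the RPS24 knockdown, against 81.3 to 83.6 CPM in the controls of its run, and 34.7 CPM in Ribo-seq, against 238 to 347 CPM. SDHD had 7.0 CPM (RNA-seq) and 3.87 CPM (Ribo-seq) in the RPL26 knockdown, against 25.7 to 53.1 CPM and 15.4 to 28.3 CPM in controls. COX8A, a complex IV subunit, had 12 CPM (RNA-seq) and 90.6 CPM (Ribo-seq) in the RPL23 knockdown, against 64.4 to 82.4 CPM and 308 to 354 CPM in controls. In each case both assays of 1 lysate lay below every control.

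SDHD was low in 4 knockdowns by this measure: RPL26, RPL36, RPS3 and RPS4X. Its RNA-seq levels were 7.89 and 8.59 CPM in the 2 RPS3 libraries, against 17.2 to 26.9 CPM in the controls of run 1. NDUFA4 was also low in the RPS28 knockdown, at 43.1 CPM in RNA-seq, against 81.3 to 83.6 CPM in controls, and at 137 CPM in Ribo-seq, against 238 to 347 CPM. NDUFA8 was low in both RPS9 libraries, at 14.4 and 17.2 CPM, against 29.7 to 46.3 CPM. UQCRFS1 and UQCRC2 were both low in the RPS6 knockdown, UQCRFS1 at 64.4 CPM against 189 to 203 CPM in RNA-seq and 117 CPM against 241 to 253 CPM in Ribo-seq. Apart from RPS3 and RPS9, these targets have 1 library, so there is no replicate check.

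The 13 mitochondrially encoded mRNAs made up a larger and more variable share of the library than the 83 nuclear members together. They took 2.0 to 7.6% of RNA-seq counts in knockdown libraries (median 3.85%) and 1.85 to 6.78% in controls (median 3.13%); the nuclear members took 0.558 to 0.752% in knockdown libraries and 0.566 to 0.74% in controls. In Ribo-seq the order was reversed, with 0.259 to 1.18% for the mitochondrially encoded members in knockdown libraries, against 1.68 to 2.3% for the nuclear ones. Per kilobase, MT-CO1 and MT-CO3, core subunits of complex IV, led the RNA-seq levels, at medians of 10700 and 9160 CPM per kb in knockdown libraries and 8460 and 7150 CPM per kb in controls. MT-ND2 and MT-ND3, both of complex I, were lowest, at 528 and 186 CPM per kb in knockdown libraries and 493 and 139 CPM per kb in controls. In Ribo-seq MT-CO3 led with 815 and 706 CPM per kb in knockdown and control libraries, and the levels spanned a narrower range, down to 67.3 and 56.3 CPM per kb for MT-ND2. MT-ND3 was the only one with more CPM in Ribo-seq than in RNA-seq, by a ratio of 3.43 in knockdown and 4.02 in control medians, the other 12 lying below 1. The genes MT-ATP8 and MT-ATP6, and MT-ND4L and MT-ND4, overlap in mitochondrial DNA, nuclear copies of mitochondrial genes and processed pseudogenes of several nuclear members exist, and how reads shared between them were counted is not given in the sources used here, so their levels are uncertain to that extent.

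In RNA-seq the mitochondrially encoded share differed more between column runs than between knockdown and control. Knockdown libraries had medians of 3.19, 3.77 and 5.95% of RNA-seq counts in runs 1, 2 and 3, and controls had 2.35, 3.36 and 6.5%. In Ribo-seq the medians were 0.524, 0.43 and 0.351% in knockdown libraries and 0.377, 0.394 and 0.307% in controls of runs 1, 2 and 3. MT-CO2 in controls read 1920, 1600, 1170 and 937 CPM in run 1, 2240 to 3090 CPM in run 2, and 5730 and 6580 CPM in run 3, with no overlap between runs. MT-ND6, the single member encoded on the other strand, had 484 and 519 CPM in the run 3 controls, within the range of the other runs' controls (264 to 569 CPM). Mitochondrial rRNA took only 0.00724 to 0.145% of counts in knockdown libraries and 0.0113 to 0.154% in controls, after rRNA removal. What distinguishes the runs is not labelled, and its part in these levels was not tested.

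**Figure D3:**
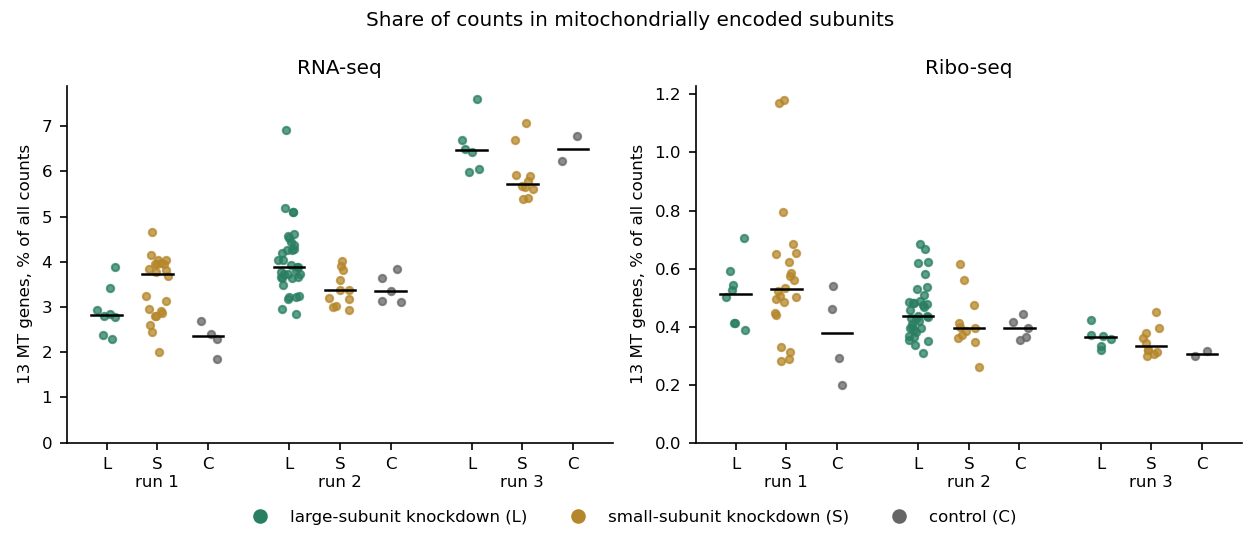
Share of all counts taken by the 13 mitochondrially encoded genes, in percent, per library, in RNA-seq and Ribo-seq, by column run, with large-subunit knockdowns, small-subunit knockdowns and controls from left to right and a bar at each median. In RNA-seq the run 3 libraries (5.39 to 7.6% in knockdowns) lie above those of run 1 (2.0 to 4.66%).

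Because of these runs, the comparison of knockdown with control turned on the term used. With the title set, 0 of 13 mitochondrially encoded mRNAs were called in RNA-seq, 0 had an unadjusted p under 0.05, and DESeq2 also called 0; log2 fold changes ran from −0.30 to 0.15. With the column run, 6 were called higher in knockdown cells and 0 lower by edgeR, against 16.6% and 19% of all genes. These were MT-CO1, MT-CO2 and MT-CO3 of complex IV at 0.22 ± 0.078, 0.37 ± 0.14 and 0.22 ± 0.085, MT-ATP6 and MT-ATP8 of complex V at 0.38 ± 0.14 and 0.44 ± 0.16, and MT-ND3 of complex I at 0.39 ± 0.13 (SE), with adjusted p between 0.0181 and 0.0353. Without control 20_2 the count was 2. Within run 1, knockdown libraries had MT-CO2 at 1150 through 2400 to 3440 CPM, against the 4 controls above, and MT-CO1, MT-CO2, MT-CO3 and MT-ATP6 were called higher (0.48 to 0.85). That fit counted the 2 libraries of each target separately. The shares of all genes called within run 1 and without control 20_2 are not given here. Within run 2 all 13 log2 differences were positive with a median of 0.23, but 0 were called (2 at an unadjusted p under 0.05). Within run 3 all 13 were negative with a median of −0.11, 0 were called and 0 had an unadjusted p under 0.05.

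For mitochondrial footprints few members were called, and the calls depended on single controls. In Ribo-seq all 13 log2 fold changes were positive, with a median of 0.30, and 3 of 13, the complex IV members, were called higher and 0 lower with the title set, against 13.2% and 13.5% of all genes: MT-CO2, for example, at 0.41 ± 0.14 (adjusted p = 0.0249, edgeR). The count was 0 when any 1 of the controls 20_1, 20_2, 21_1 or 21_2 was left out, and in each run alone. With the run term, MT-CO2, MT-ATP6 and MT-ATP8 were called at 0.35 ± 0.13, 0.41 ± 0.15 and 0.44 ± 0.16, and 0 without control 20_2. In run 1 the MT-CO2 footprints ran from 194 through 394 to 895 CPM in knockdown libraries, against 378, 327, 133 and 200 CPM in controls, so the groups overlapped. Translation efficiency of the 13 was positive throughout in the main model (median 0.26) with 0 called and 0 at an unadjusted p under 0.05; with the run term the median was 0.01. The interaction of knockdown with title set, unnumbered minus numbered, was positive for all 13 in RNA-seq (0.33 to 1.27), with 10 at an unadjusted p under 0.05 and 0 called; of all genes 0 were called and 871 had an unadjusted p under 0.05. In Ribo-seq 12 of 13 were negative and 0 were called.

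The targets' own subunit was the next grouping. Mitochondrially encoded mRNAs were higher in large- than in small-subunit knockdowns, mainly in column run 2, where most large-subunit targets lie. With the run term 8 of 13 were called higher and 0 lower in RNA-seq, against 15.8% and 17.5% of all genes, while with the title set 1 was called, MT-ND4L at 0.35 ± 0.13 (adjusted p = 0.0242, edgeR), against 15.2% and 16.4%. In run 2, with 34 large- and 11 small-subunit libraries, 11 of 13 were called higher and 0 lower, against 7.16% and 6.78% of all genes, and the median log2 difference over the 13 was 0.59. Scaling by library totals, by nuclear genes or by DESeq2 size factors left 11 called higher in run 2 and 7 to 9 with the run term. With the title set, library totals called MT-CO3 alone, and as lower. The shares of all genes called under these scalings are not given here. MT-ND4L ran from 144 through 246 to 680 CPM in large-subunit and from 108 through 140 to 211 CPM in small-subunit knockdowns of run 2 (0.80 ± 0.15, adjusted p = 0.000204), with the 5 controls between 154 and 253 CPM. MT-CO2 ran from 2170 through 3450 to 7530 CPM in large-subunit and from 1710 through 2340 to 2950 CPM in small-subunit knockdowns (0.68 ± 0.12, adjusted p = 9.82e-05). MT-CO1 and MT-CO3 were the 2 not called, and the groups overlapped for both named genes.

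In run 3, with 6 large- and 10 small-subunit libraries, all 13 differences were positive and 4 were called, against 3.17% of all genes called higher and 3.26% lower. These were MT-ATP8 at 0.52 ± 0.11, MT-ND6 at 0.40 ± 0.11, MT-CO2 at 0.35 ± 0.094 and MT-CYB, the cytochrome b of complex III, at 0.25 ± 0.072 (SE). In run 1, with 8 large-subunit libraries of 4 targets and 22 small-subunit libraries of 11 targets, 0 were called higher and 1 lower, against 7.84% and 8.06% of all genes: MT-CO3, which fell by 0.35 ± 0.11 (adjusted p = 0.0214). This fit counted the 2 libraries of each target separately, as did the comparison between runs that follows. The large-minus-small difference was itself larger in run 2 than in run 1 for 5 of the 13, against 1.84% of all genes called in that direction. MT-ND3 had the largest gap, at 0.88 ± 0.20 (adjusted p = 0.0107, edgeR interaction), and all 13 had an unadjusted p under 0.05. Between runs 2 and 3 none of the 13 was called (3 at an unadjusted p under 0.05). The 3 runs knock down different targets, so the run and the set of targets cannot be told apart.

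**Figure D4:**
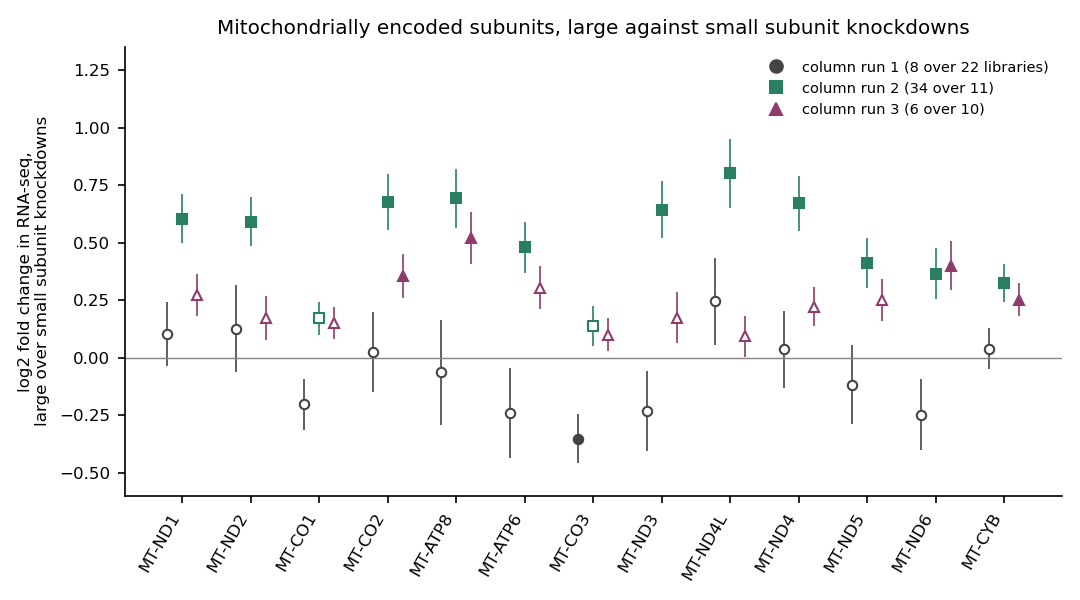
Log2 fold change of RNA-seq counts, large-subunit over small-subunit knockdowns, for each mitochondrially encoded gene in column runs 1, 2 and 3, with bars of 1 standard error; filled marks have an adjusted p under 0.05. Run 2 values lie between 0.14 and 0.80 and run 1 values on both sides of 0.

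Among nuclear members, large- and small-subunit knockdowns differed for some mRNAs: 8 of 78 were higher and 6 lower in RNA-seq with the title set, against 15.2% and 16.4% of all genes. This balance depended on the scaling, since library totals alone gave 2 higher and 17 lower, while each member named here kept its sign with the title set. The shares of all genes called with library totals are not given here. NDUFB3, an accessory complex I subunit, rose most, at 34 through 54.1 to 69.6 CPM in large-subunit and 22.8 through 40.4 to 61.6 CPM in small-subunit knockdowns (0.24 ± 0.053, adjusted p = 0.000146, edgeR). ATP5MC1 and ATP5MC2, which encode the same c subunit of the ATP synthase ring, were higher by 0.11 ± 0.037 and 0.15 ± 0.041, and ATP5F1A, the alpha subunit, by 0.14 ± 0.041. NDUFV3, COX7B, UQCRC2 and ATP5MJ were higher by 0.09 to 0.14. Called lower were the complex I members NDUFB6, NDUFB9, NDUFA6, NDUFS6 and NDUFA12 (−0.19, −0.17, −0.16, −0.15 and −0.11) and COX6B2, a testis-enriched isoform near the detection limit here, at −0.76 ± 0.15.

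In Ribo-seq 11 of 77 nuclear members were higher and 8 lower in large- than in small-subunit knockdowns. Of all genes, 10.9% were called higher and 11.2% lower, so the shares of members called were close to the background. Library totals alone gave 8 and 10, and the shares of all genes called in that fit are not given here. NDUFB3 again led, at 0.40 ± 0.084 (adjusted p = 0.000188, edgeR), and within runs 2 and 3 it was 0.53 ± 0.11 and 0.38 ± 0.072, both called. In run 1 NDUFB3 was 0.10 ± 0.075 and not called, and its footprint levels were low there, at 81.5 to 136 CPM in knockdown libraries and 77.3 to 96.5 CPM in controls, against 132 to 420 CPM and 201 to 305 CPM in run 2. COX7C, ATP5PF, NDUFA5, UQCRFS1, UQCRC2, ATP5MF and NDUFB4 were higher by 0.16 to 0.25. UQCRH, the acidic hinge subunit of complex III, fell most, by 0.32 ± 0.077 (adjusted p = 0.000929), followed by ATP5F1D, ATP5MJ, COX6A1, COX8A, ATP5F1E, NDUFV1 and COX4I1 (−0.27 to −0.10). ATP5MJ was thus called higher in RNA-seq and lower in Ribo-seq. Shared between assays were NDUFB3 and UQCRC2, 2 of the 8 higher in RNA-seq and of the 11 in Ribo-seq, and none of those lower. With the run term the Ribo-seq counts were 12 and 9, against 11.2% and 11.9% of all genes, and 0 mitochondrially encoded members were called (2 at an unadjusted p under 0.05), against 1 with the title set, MT-ND4L at 0.26 ± 0.095.

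The 16 targets with 2 libraries each allow a test per target. Against the controls of the title set, nuclear members were called higher in 154 and lower in 69 of 1248 tests in RNA-seq (12.3% and 5.53%), against 11.5% and 14% over all genes. Without control 20_2 the RNA-seq calls were 337 and 74, and the share of all genes called in that fit is not given here. In Ribo-seq the calls were 149 and 70 of 1232 (12.1% and 5.68%), against 12.5% and 14.5%. The tests share their controls, and whether the members' shares differ from those of all genes was not tested. Of 78 nuclear members in RNA-seq, RPL15 knockdown had 16 higher and 0 lower, against 16% and 19.5% of all genes. RPS12 knockdown had 9 higher and 12 lower, against 13.5% and 14.2%. RPL29 knockdown had 3 higher and 9 lower, against 5.3% and 5.98%. Against the controls of run 1 alone, 15 targets gave 174 higher and 176 lower of 1170 in RNA-seq, against 16.8% and 20.1% of all genes, and 20.9% higher and 8.83% lower of 1155 in Ribo-seq, against 16.6% and 17.5%.

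Single members recurred over these targets in the tests against the title-set controls. Those tests share their controls, so a control level that is low or high recurs in each of them. ATP5PB, for example, had 59.6 to 78.7 CPM in the run 1 controls in RNA-seq. How many of all genes recurred as often is not given here, so the counts that follow are a description. ATP5PB was called higher in RNA-seq in 14 and lower in 1, RPS15 knockdown, at −0.39 ± 0.11 (adjusted p = 0.00713, edgeR). NDUFS4 and UQCRC2 followed with 12 each. Most often lower in RNA-seq were ATP5MK, a small subunit of complex V, in 7 targets, SDHD in 6, and COX8A and NDUFC2 in 5 each. In Ribo-seq ATP5MG was higher in 7 targets and NDUFB8 in 6, and ATP5F1B was lower in 8 (for example −0.28 ± 0.082 in RPS12 knockdown), followed by SDHC in 5 and CYC1 and NDUFS3 in 4 each. ATP5F1B mRNA and footprints were level over all knockdowns together, at medians of 1740 and 1750 CPM in knockdown and control Ribo-seq libraries.

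For the mitochondrially encoded members the choice of controls decided the direction. Against the title-set controls they were called higher in 0 and lower in 16 of 208 RNA-seq tests (7.69%), against 11.5% and 14% over all genes. Without control 20_2, 57 were lower, and the share of all genes in that fit is not given here. Against the run 1 controls they were called higher in 75 and lower in 5 of 195 (38.5% and 2.56%), against 16.8% and 20.1%. In Ribo-seq both choices gave higher calls, 63 of 208 (30.3%, against 12.5% over all genes) and 72 of 195 (36.9%, against 16.6%). With run 1 controls, RPS12 knockdown had 11 of 13 called higher in RNA-seq and 10 in Ribo-seq, and RPL15 knockdown 11 and 11. RPS9 knockdown had 10 higher in RNA-seq and 0 in Ribo-seq, and RPS26 knockdown 3 higher in RNA-seq and 11 in Ribo-seq. RPS7 knockdown had 0 in each. In these targets the share of all genes called higher was 10.1 to 23.5% in RNA-seq and 15.4 to 23% in Ribo-seq.

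Over all 75 targets the mean log2 ratio of the members to the controls (CPM plus 0.5) is a description, with no test. For the nuclear members it was small in size, though often outside the range of the controls. Against the controls of the same column run, RNA-seq ratios ran from −0.23 in RPL29 to 0.27 in RPL8 knockdown, with a median of 0.06, and 56 of 75 were positive. RPS26, RPS12 and RPS3 were also near the low end, and RPS18, RPL30 and RPL9 near the high end. In Ribo-seq they ran from −0.12 in RPL5 to 0.19 in RPL15 knockdown, with a median of 0.05. The controls' own RNA-seq ratios to their run's mean were −0.19, −0.19, 0.04 and 0.24 in run 1, and 14 of the 15 run 1 targets lay within that range and 1 below it. They were closer together in run 2 (−0.03 to 0.02) and run 3 (0.01 and −0.01). Above all controls lay 30 of 44 run 2 targets and 13 of 15 run 3 targets, and below them 5 and 1. Over the 3 runs 44 of 75 targets lay above every control of their run and 7 below in RNA-seq, and 39 above and 2 below in Ribo-seq. Such counts depend on the number and spread of the controls, whose ratios are taken to their own mean. Run 3 has only 2 controls, and in run 1, where they spread most, 0 of 15 targets lay above them in RNA-seq. Matching counts for other genes are not given here, so these are no result about the members. The median ratio over all genes stayed between −0.071 and 0.014 in RNA-seq.

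The mitochondrially encoded members spread more widely between targets. In RNA-seq the ratio to the run's controls ran from −0.44 in RPS4X to 1.37 in RPL23 knockdown, with a median of 0.13, and 48 of 75 were positive. RPS21, RPS25, RPS3A and RPS14 followed RPS4X at the low end, and RPS9, RPL22 and RPL23A were near the high end at 0.83, 0.82 and 0.76. In the RPL23 library MT-ND3 was higher by 1.91, MT-ATP8 by 1.82 and MT-CO1 by 0.72 on the log2 scale. The 44 large-subunit targets had a median of 0.26 and the 31 small-subunit targets one of −0.14. In run 2, 20 of 34 large-subunit targets lay above all 5 controls and 2 below, while 0 of 10 small-subunit targets lay above and 6 below. Matching counts for other genes are not given here. In run 1 the 2 medians were 0.32 and 0.32, for 4 and 11 targets. The controls' own ratios were 0.33, 0.16, −0.11 and −0.59 in run 1 and −0.11 to 0.23 in run 2. With the title-set controls instead, all 15 run 1 targets were negative (−1.01 to −0.04) and all 15 run 3 targets positive (0.58 to 1.29).

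**Figure D5:**
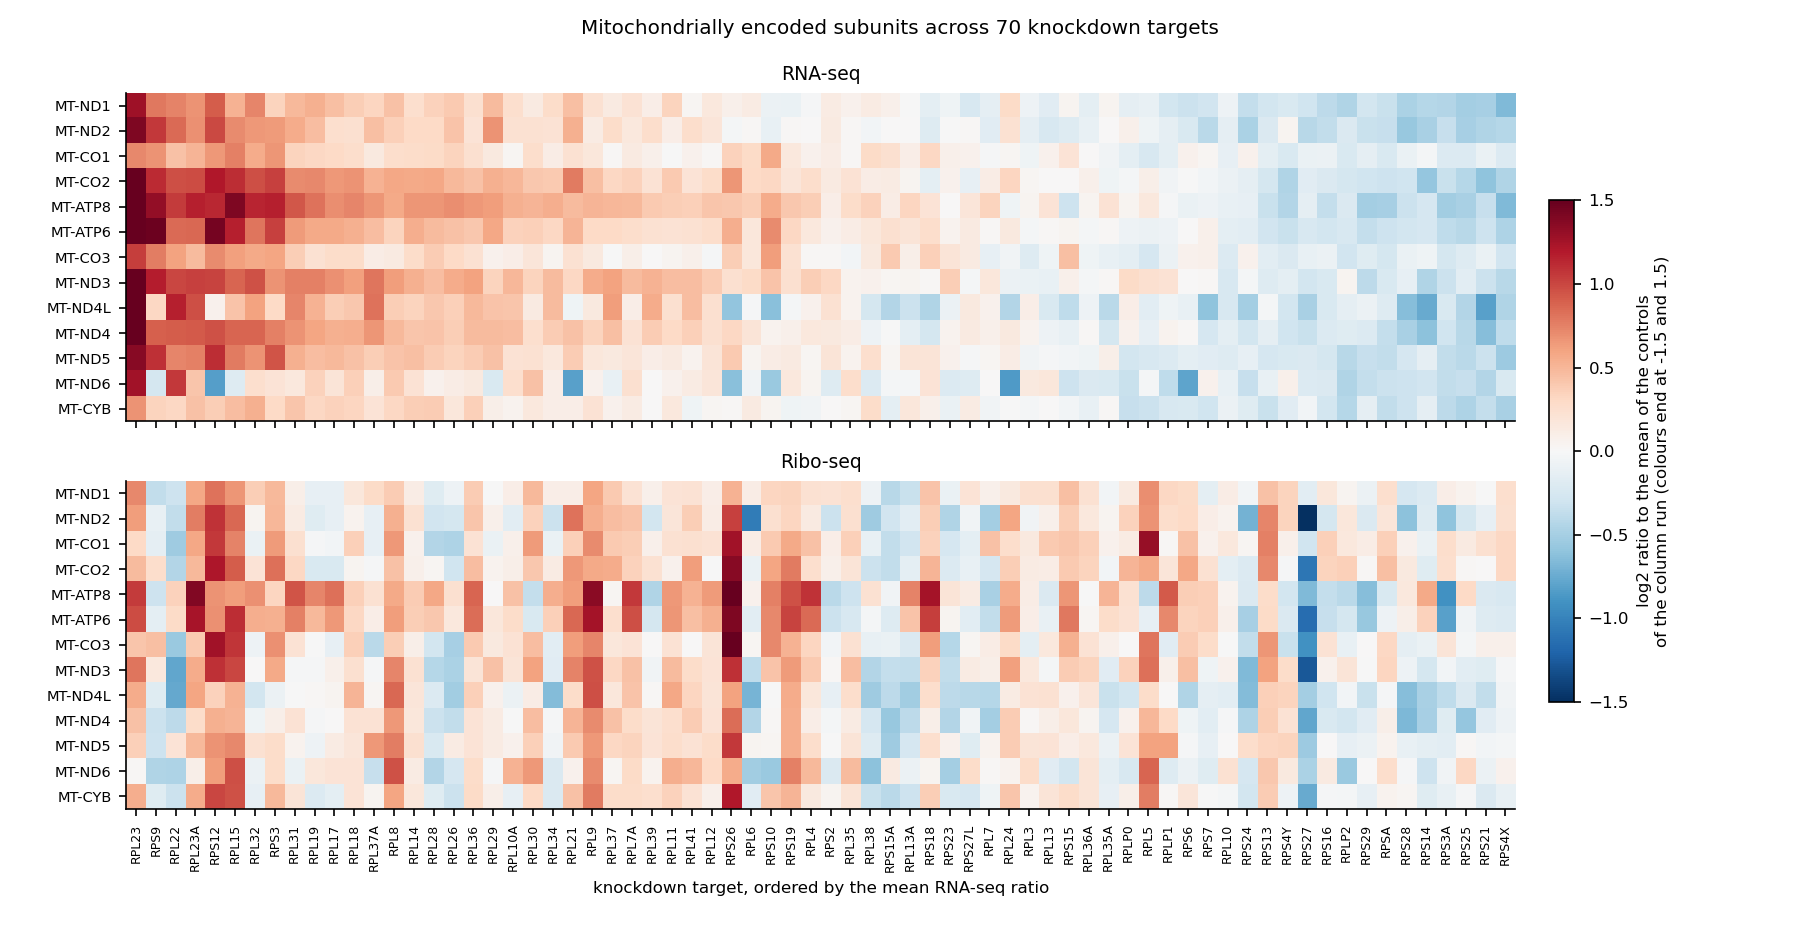
Log2 ratio of CPM to the column run's control mean for the 13 mitochondrially encoded genes (rows) in 70 of the 75 knockdown targets (columns, ordered by their mean RNA-seq ratio), in RNA-seq above and Ribo-seq below; colours end at −1.5 and 1.5 and libraries of 1 target are averaged. RPL23 is at the high and RPS4X at the low end of RNA-seq, and the Ribo-seq panel does not keep that order.

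Footprints and mRNAs of the mitochondrially encoded members parted in several targets. In Ribo-seq RPS26, RPS12, RPL15 and RPL9 knockdowns were among those with the highest mean ratios (1.10, 0.85, 0.82 and 0.81), and RPS27 and RPL22 among those with the lowest (−0.79 and −0.31). RPL22 knockdown had a ratio of 0.82 in RNA-seq against −0.31 in Ribo-seq, and RPS9 knockdown 0.83 against −0.13. The 2 RPS9 libraries were of opposite sign in Ribo-seq, at 0.24 and −0.49, within the range of the run 1 controls' own Ribo-seq ratios (0.50, 0.30, −0.85 and −0.35), and were 0.90 and 0.76 in RNA-seq. RPS26 knockdown had 0.16 in RNA-seq against 1.10 in Ribo-seq, and its 2 libraries differed in Ribo-seq, with MT-CO1 at 1.75 and 0.754. In both RPS12 libraries MT-ND6 mRNA was lower, at −0.832 and −0.815, while MT-CO2 mRNA was higher, at 1.21 and 1.19. RPL9, RPS27 and RPL22 have 1 library each, without a replicate check.

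Across the 91 knockdown libraries, after subtracting each run's mean over knockdown libraries from log2 CPM, the mitochondrially encoded mRNAs moved together and the nuclear ones loosely. Over pairs of genes the median Pearson r in RNA-seq was 0.845 among the 13, 0.242 among 77 nuclear members and −0.001 among all genes. Between a nuclear and a mitochondrially encoded member it was −0.034. These pairs share libraries, depth and scaling, and no p is given. Complex IV had the highest median among its nuclear members (0.386) and complex III the lowest (0.104). MT-ND6 followed the other 12 least, at a median r of 0.47. In Ribo-seq the medians were 0.761 among the mitochondrially encoded and 0.116 among the nuclear members. The order of the complexes differed there, with 0.163 in complex V, 0.13 in complex I, 0.093 in complex IV, −0.003 in complex III and −0.041 in complex II.

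Genes that build, express and feed the complexes were read from separate lists, chosen by function. Of 46 assembly factors, 6 were higher and 6 lower in knockdown RNA-seq, and 3 were higher and 6 lower in Ribo-seq. Of all genes, 13.4% were higher and 17.2% lower in RNA-seq, and 13.2% and 13.5% in Ribo-seq, and the counts of each list here stand against these shares. PET117, a complex IV assembly factor, rose by 0.60 ± 0.075 in RNA-seq (adjusted p = 3.01e-10, edgeR), and UQCC1, which acts in cytochrome b expression, by 0.37 ± 0.073; TMEM70, a complex V assembly factor, fell by 0.37 ± 0.099. Of 23 genes of mitochondrial gene expression, 1 was higher and 4 lower in RNA-seq with the title set. With the run term the RNA-seq counts were 6 and 5, against 16.6% and 19% of all genes. In Ribo-seq they were 1 and 4 with the title set, and 2 and 2 with the run term. TFAM, which packages and transcribes mitochondrial DNA, had −0.49 ± 0.15 in RNA-seq (adjusted p = 0.00782), which the run term moved to −0.26 ± 0.14 (adjusted p = 0.134), and −0.41 ± 0.11 in Ribo-seq (adjusted p = 0.0043). TWNK, the mitochondrial helicase, fell by 0.25 ± 0.073, and GFM2, a mitochondrial ribosome recycling factor, rose by 0.26 ± 0.083.

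Of 9 regulators of mitochondrial biogenesis, 1 was higher and 4 lower in RNA-seq: PPARGC1A rose by 0.52, and NRF1 and PPARGC1B fell by 0.24 and 0.25. Of 13 citric acid cycle genes, 4 were higher and 0 lower in RNA-seq, SUCLG1, a succinyl-CoA ligase subunit, among them at 0.23. In the import list TOMM22, a receptor of the outer membrane, rose by 0.80 ± 0.090 (adjusted p = 6.71e-12), and TOMM40, the import channel, fell by 0.41; the list held 1 higher and 2 lower of 12. Of 17 glycolysis genes, 1 was higher and 3 lower: PFKL rose by 0.62 ± 0.088, and ENO2 and ALDOC fell by 0.37 and 0.51. The RNA-seq counts of these 4 lists stand against the same 13.4% higher and 17.2% lower of all genes. In Ribo-seq with the title set, the import list held 1 higher and 5 lower of 12, against 13.2% and 13.5% of all genes. With the run term it held 1 and 4, against 14.1% and 13%. The title-set Ribo-seq counts were 0 and 3 for the regulators, 1 and 1 for the citric acid cycle and 1 and 3 for glycolysis. The medians of the 6 lists in RNA-seq lay between −0.16 and 0.06 on the log2 scale.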

How the data were processed

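Gene-level counts of RNA-seq and Ribo-seq in 102 libraries per assay were used as deposited by the authors: per the file headers, exon counts for RNA-seq and coding-sequence counts for Ribo-seq. Per the submitters' processing notes, STAR 2.6.1, cutadapt 1.8.1 and bcl2fastq 2.20.0.422 were used with GRCh38. Not given in the sources used here are the counting program, its strand setting, its treatment of multi-mapping reads and the gene annotation.

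Genes that reached 1 CPM in 11 or more libraries were tested with edgeR 4.0.16 (quasi-likelihood, TMM scaling, Benjamini-Hochberg over all genes tested, threshold 0.05) in R 4.3.3, with the title set as a term and controls as the base. The standard error of a log2 fold change is its size divided by the square root of the F statistic. Translation efficiency is the assay-by-knockdown interaction. The alternatives were DESeq2 1.42.0, a lysate-paired limma 3.58.1 fit (log2 CPM, prior count 2), other scalings and filters, single libraries left out and, chosen after the data were seen, the column run as the term. Levels are TMM-scaled CPM, with 0.5 CPM added for ratios. No 2 libraries of 1 group were alike within sampling noise (lowest chi-square per degree of freedom 3.47 over 41 pairs in RNA-seq and 3.71 in Ribo-seq). The scripts were tested on simulated data.

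The members, lists and tests were chosen with earlier results of these data known, and the NRF1 motif letters were settled after promoters had been searched. Named members are all 13 mitochondrially encoded genes, up to 8 called nuclear members per direction with the largest change, the most abundant nuclear member of each complex in controls, 4 members called in most replicated targets per direction, the 5 highest and lowest targets, and up to 2 called genes per list and direction with the smallest p. Others were named after their values were seen. A few genes and targets are not reported here.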

Additional observations from a re-analysis of the deposited data

Results flagged for a closer look

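Control 20_2 was the source of 5 of the 6 values that lay far from the other controls of their title set, among 156 groups tested; chance flags about 1 in 20 groups. In its RNA-seq library UQCR11 had 69.3 CPM (the other numbered controls 40.9 to 48.7 CPM), ATP5MC2 251 CPM (143 to 179 CPM), ATP5MC1 132 CPM (76.2 to 93.8 CPM), NDUFS4 20.6 CPM (30.7 to 33.0 CPM) and MT-ND6 264 CPM (484 to 569 CPM). The sixth was NDUFA12 in the unnumbered control 7, at 24.5 CPM (31.4 to 33.6 CPM in the others).

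The difference between large- and small-subunit knockdowns was itself larger in column run 2 than in run 1 for 6 members in RNA-seq (edgeR interaction): MT-ND3 by 0.881 ± 0.20, MT-ATP6 by 0.7255 ± 0.20, MT-CO2 by 0.6587 ± 0.20, MT-ND6 by 0.6109 ± 0.18, MT-CO3 by 0.4915 ± 0.13 and the complex I gene NDUFC1 by 0.4234 ± 0.11 on the log2 scale (SE), with adjusted p between 0.0107 and 0.0485. The runs hold different targets, and the part of either was not tested.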

How the results depend on the processing

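Of 1225 recomputed values of named members, 848 kept their direction and their side of the threshold, 363 kept their direction but were no longer past it, and 14 changed sign. The causes were not tested. Depth limits COX6B2, which reached at most 1.56 CPM in RNA-seq, and run 3 has only 2 controls. Fits over 1 run or 1 title set hold fewer samples, and those without replicate 1 or 2 leave 1 library per target, which is assumed to vary like the others.

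Counts of members called were as follows. Where the share of all genes called in a fit is not stated above, it is not given here. For all knockdowns in RNA-seq, 15 nuclear members became 7 with numbered titles alone, 7 with unnumbered titles alone, 6 in run 2, 1 in run 3, and 23 with the run term and library totals. The 0 mitochondrially encoded members became 4 in run 1 alone, 2 with unnumbered titles alone and 6 with the run term, the last under each of the 3 other scalings too; without control 20_2 the run term gave 2. In Ribo-seq 11 nuclear members became 5 with numbered and 3 with unnumbered titles, 3 in run 2, 1 in run 3, and 17 with the run term and library totals. The 3 mitochondrially encoded ones became 0 without the title set term, with unnumbered titles and in each run alone, and 6 with the run term and library totals. Leaving out 1 control at a time gave 12 to 19 nuclear and 0 to 2 mitochondrially encoded members in RNA-seq, and 9 to 14 and 0 to 5 in Ribo-seq. For translation efficiency, 0 nuclear members became 1 without the filter and 2 in both lysate-paired fits.

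For large against small subunits, 14 nuclear members in RNA-seq became 34 without the title set term, 2, 3 and 4 in runs 1, 2 and 3 alone, 3 in run 2 with nuclear or DESeq2 scaling, and 24 with the run term and library totals. The 1 mitochondrially encoded member became 7 without the title set term, 2 with nuclear scaling, with DESeq2 size factors and without control 20_2, 11 in run 2 under all 4 scalings, 4 in run 3, and 8 with the run term (9, 9 and 7 under nuclear, DESeq2 and library-total scaling). In Ribo-seq 19 nuclear members became 37 without the title set term, 12 in run 1, 3 in run 2 under all 4 scalings and 1 in run 3. The 1 mitochondrially encoded member became 5 without the title set term and 0 in each run alone and with the run term, under the other scalings too. Over the 16 replicated targets, 223 nuclear and 16 mitochondrially encoded calls in RNA-seq became 350 and 80 with run 1 controls, and 219 nuclear calls in Ribo-seq became 343. Leaving out replicate 1, replicate 2 or control 20_2 gave 3 to 411 nuclear and 0 to 57 mitochondrially encoded calls in RNA-seq, and 18 to 208 and 8 to 52 in Ribo-seq.

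The replicate numbers did not pair the libraries: deviations of same-numbered libraries had a median correlation of −0.0631 in RNA-seq and 0.0976 in Ribo-seq, with 50 and 59 of 120 pairs over 0.1. With the replicate block, fitted on numbered libraries, the calls for all knockdowns were 13 nuclear and 4 mitochondrially encoded in RNA-seq and 7 and 0 in Ribo-seq, and the same libraries without the block gave 14 and 4, and 7 and 0. For the replicated targets the block gave 339 and 85 in RNA-seq and 434 and 71 in Ribo-seq.

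Signs changed as follows. For all knockdowns, UQCR11 in RNA-seq was 0.042 in run 3 alone. COX5A in Ribo-seq was 0.0776 with the replicate block and 0.0776 in the same libraries without it, and 0.0216 in run 1 alone. MT-CO3 in Ribo-seq was −0.0042 with unnumbered titles. For large against small subunits in RNA-seq, ATP5F1A was −0.0567, NDUFA6 0.0233 and NDUFA12 0.0647 in run 3 alone, ATP5MJ −0.0409 in run 1 alone and −0.0087 with the run term and library totals, UQCRC2 −0.0577 and ATP5MC1 −0.0273 in run 2 with library totals, and NDUFB6 0.0881 without the title set term. In Ribo-seq NDUFB4 was −0.0227 in run 1 alone.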
